A study of Mus musculus with 2 samples.

Results

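The Fgf1 block is a run of neighbouring genes around Spry4 in the mouse genome. It was taken as 6 genes by symbol, out of 33696 counted gene identifiers: Rnf14, Gnpda1 and Ndfip1 on one side of Spry4, and 9630014M24Rik, Fgf1 and Gm5820 on the other. The 6 were picked with their ratios in dentate granule nuclei already known, so those ratios are given as a description and support nothing. All 6 were counted in both libraries. The hippocampus was profiled at postnatal day 19 by single-nucleus RNA sequencing, in 1 Control library from Cic flox/flox mice and 1 library labelled knockout from Emx1-Cre; Cic flox/flox mice. Each library pooled tissue of 3 mice, 2 males and 1 female, so both carry the floxed alleles and only the latter carries Cre. Emx1-Cre drives recombination in the dorsal telencephalic lineage, which gives rise to the excitatory neurons and much of the glia of the hippocampus, while most inhibitory neurons and the microglia arise elsewhere. Recombination in each class was not measured.

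Fgf1 encodes acidic fibroblast growth factor, a ligand of the FGF receptors that lacks a classical secretion signal. FGF receptors signal through RAS and ERK, and Spry4 encodes a feedback inhibitor of that route. Capicua, the product of Cic, is a transcriptional repressor that ERK signalling relieves, and genes of the ETV, SPRY, SPRED and DUSP families are among its known targets. Of the other genes, Ndfip1 encodes an adaptor of NEDD4-family ubiquitin ligases, Gnpda1 a glucosamine-6-phosphate deaminase and Rnf14 a RING-between-RING ubiquitin ligase. 9630014M24Rik and Gm5820 are long noncoding RNA genes.

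The gene order and strands come from GENCODE M21 on GRCm38, which holds 94.9% of the counted identifiers, whereas the counts were made on mm39, so no positions are given. Along the chromosome the order was Rnf14, Gnpda1, Ndfip1, Spry4, 9630014M24Rik, Fgf1, Gm5820 and Arhgap26. The start of 9630014M24Rik lay 119 bases from that of Spry4 on the opposite strand, and the gene ran 188 kb away from Spry4 towards Fgf1. Fgf1 and Gm5820 lay on opposite strands and overlapped by 37.0 kb. Whether the counting used strand is not given in the sources used here, so reads from that overlap may not be told apart, and the levels of this pair are uncertain to that extent. An additional Arhgap26 model that was not counted as a gene of its own covered 112 kb of 9630014M24Rik on the same strand. No sequence of the block is shown.

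The Control library held 25907 barcodes and 314453640 UMIs (unique molecules), and the other library 23207 barcodes and 252995761 UMIs. After filters, 21783 and 20569 nuclei were used, with medians of 9786 and 8765 UMIs, and 128 of the barcodes used occurred in both libraries. Clusters were named from fixed marker genes with the ending "-like", and 14 classes had at least 100 nuclei in each library. Cic itself showed no loss under the knockout label. Its UMIs in dentate granule-like nuclei were 515 in the Control and 514 in the other library, a log2 ratio of 0.46 (0.28 to 0.64). In inhibitory-like nuclei Cic had a log2 ratio of -0.02 (-0.31 to 0.27), and in microglia-like nuclei -0.09 (-0.58 to 0.39). Higher values were those of CA1-like (0.94, 0.68 to 1.21), oligodendrocyte-like (0.71, 0.46 to 0.97) and CA3-like nuclei (0.68, 0.41 to 0.96). Transcripts that hold the floxed exons cannot be told from others in counts per gene, so the library is called by its label throughout and every direction below rests on that label. With 1 library per group no difference could be tested, and each interval is a 95% interval for counting error alone.

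In dentate granule-like nuclei the 3 genes between Spry4 and Arhgap26 were nearly silent in the Control and abundant in the library labelled knockout, while the 3 genes on the far side of Spry4 had nearly equal levels in both. 9630014M24Rik had 86 UMIs in 4588 Control nuclei and 8431 UMIs in 3670 nuclei of the library labelled knockout, which is 1.53 and 207 CPM (UMIs scaled to the same total in each class and library). Its log2 ratio was 7.07 (6.77 to 7.40). Gm5820 had 53 and 3509 UMIs, or 0.942 and 86.1 CPM, with a log2 ratio of 6.50 (6.12 to 6.93). Fgf1 stood at 59 and 2179 UMIs, or 1.05 and 53.4 CPM, and its log2 ratio was 5.66 (5.30 to 6.07). With free RNA subtracted, as measured in microglia-like nuclei, 70.6 of the 86 Control UMIs of 9630014M24Rik were left but only 9.63 of Fgf1 and 9.80 of Gm5820. The log2 ratios were then 7.35, 8.18 and 8.86, the latter pair resting on those few UMIs. With at least 1000 genes per nucleus the log2 ratios were lower for 9630014M24Rik, at 6.31, and Gm5820, at 5.88. In that setting the nuclei were also clustered and named anew, so the class itself could differ. The counting intervals of the 2 libraries were far apart for each of these genes.

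Ndfip1 counted 13058 UMIs for the Control and 10024 for the other library, or 232 and 246 CPM, a log2 ratio of 0.08 (0.05 to 0.12). Gnpda1 had 601 and 513 UMIs, or 10.7 and 12.6 CPM, a log2 ratio of 0.24 (0.06 to 0.41). Rnf14 had 3086 and 2272 UMIs, or 54.9 and 55.7 CPM, a log2 ratio of 0.02 (-0.06 to 0.10). A size rule counted a gene as higher or lower at 2-fold or more provided that the higher library had 50 UMIs or more and 10 CPM or more. By it 3 of the 6 genes were higher and none was lower, against 2.24% of 8432 genes higher and 1.04% lower. Nothing is read from that contrast, since the genes were chosen on it. With a minimum of 20 UMIs and none on CPM the count was again 3, against 3.35% of genes higher. Spry4 itself had 8 and 313 UMIs, or 0.142 and 7.68 CPM, a log2 ratio of 5.67 (4.76 to 6.98), and stayed under the minimum of 10 CPM.

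Per kilobase of annotated span, the dentate granule-like levels in the library labelled knockout were 1.10 CPM for 9630014M24Rik, 1.09 for Gm5820, 0.588 for Fgf1 and 0.506 for Spry4. Ndfip1 was the most abundant gene of the block on that scale, at 4.48 CPM per kilobase. In the Control the same scale gave 0.00815 for 9630014M24Rik, 0.012 for Gm5820 and 0.0116 for Fgf1. On that scale 9630014M24Rik and Gm5820 of the library labelled knockout came near Gnpda1, at 1.10 CPM per kilobase, and stayed under Rnf14, at 1.67. Without the division by span both were above these genes, at 207 and 86.1 CPM against 12.6 for Gnpda1 and 55.7 for Rnf14. UMIs count molecules, and whether introns were counted is not given in the sources used here. The order per kilobase therefore need not be that of the RNA levels.

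The share of nuclei with a UMI differed between the genes. A 9630014M24Rik UMI was seen in 1.55% of Control nuclei (1.21% to 1.95%) and in 83.0% of those from the library labelled knockout (81.7% to 84.2%). For Fgf1 the shares were 1.16% and 42.6%, for Gm5820 1.09% and 55.9%, and for Spry4 0.153% and 7.77%. For Ndfip1 they were 90.1% in both. Microglia arise outside the Emx1 lineage and serve here as a measure of free RNA. In microglia-like nuclei a 9630014M24Rik UMI was seen in 0.202% and 1.22% of nuclei, but at median depths of 2130 and 1719 UMIs against 11736.5 and 10658.5 in the dentate class. With every nucleus thinned to 2000 UMIs, the share for 9630014M24Rik in the dentate granule-like class was 0.174% and 33.1%, and in the microglia-like class 0.121% and 1.74%. Thinning also shrinks free RNA more in the deeper class. Counted per nucleus without thinning, the Control dentate level of 9630014M24Rik was 5.57 times the microglia-like one, that of Fgf1 1.20 times and that of Gm5820 1.23 times, against 161, 43.8 and 101 times in the library labelled knockout. For Fgf1 the thinned Control share was 0.262% in dentate granule-like and 0.971% in microglia-like nuclei, which that shrinking makes hard to compare. Since the unthinned Control levels of Fgf1 and Gm5820 were near the microglia-like ones, no expression of either is read from the Control class.

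In the library labelled knockout the count of the noncoding RNA varied from nucleus to nucleus. Among the dentate granule-like nuclei 17.0% had no 9630014M24Rik UMI, 23.7% had 1, 22.0% had 2, 30.5% had 3 to 5 and 6.89% had 6 or more, up to 14 in 1 nucleus. Fgf1 reached 6 UMIs in a nucleus at most, and 57.4% of nuclei had none. In the Control no nucleus of the class had more than 4 UMIs of either gene.

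**Figure D1:**
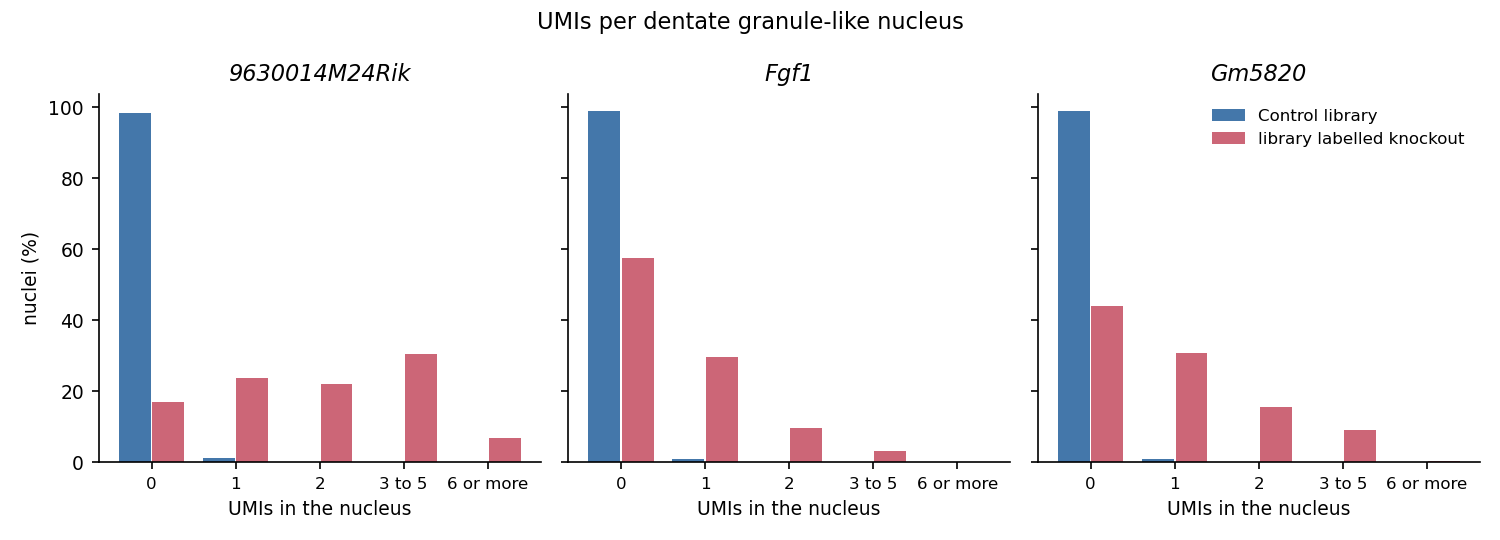
Share of dentate granule-like nuclei (vertical axis, percent) by the number of UMIs of 9630014M24Rik, Fgf1 and Gm5820 in the nucleus (horizontal axis), for the Control library (blue) and the library labelled knockout (red). Nearly all Control nuclei sit at 0 UMIs, while 30.5% of nuclei of the other library held 3 to 5 UMIs of 9630014M24Rik.

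The dentate granule-like class was made of different clusters in the 2 libraries. Cluster 0 held 1136 Control nuclei and 3537 from the library labelled knockout, and cluster 2 held 3452 and 133. Within cluster 0 the log2 ratio of 9630014M24Rik was 5.82 (5.42 to 6.28), from 3.65 to 208 CPM, and within cluster 2 it was 7.55 (7.08 to 8.08), from 0.917 to 173 CPM. Fgf1 had log2 ratios of 5.28 and 5.42 in those clusters, and Ndfip1 -0.05 and 0.10. Gm5820 had 5.22 and 6.56. The 2 clusters split the same class on which the genes were chosen, so these ratios too are only a description. For Fgf1 they rested on 17 and 42 Control UMIs. Neither the block genes nor Spry4 had entered the clustering.

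Marker levels of other classes moved with the library inside the dentate granule-like class. The largest sums of other sets were those of the 7 inhibitory markers, 1606 and 2009 CPM, and the 7 astrocyte markers, 1232 and 954 CPM. The summed level of the 6 markers of immature granule cells was 92.7 CPM in the Control and 154 CPM in the library labelled knockout, and that of the 8 granule cell markers was 1698 and 1113 CPM, mostly through Stxbp6 (645 to 346 CPM) and Trpc6 (362 to 112 CPM), while C1ql2 and Il16 had log2 ratios of 0.50 and 0.49. The 7 Cajal-Retzius markers summed to 8.78 and 45.7 CPM, through Reln and Trp73 (3.50 to 34.8 and 0.800 to 6.55 CPM), while Lhx1, Lhx5 and Nhlh2 had at most 11 UMIs each in either library. The 6 choroid plexus markers summed to 9.94 and 47.0 CPM, through Htr2c and Prlr, with Ttr at 17 and 4 UMIs and Otx2 at 0. The part of these differences in the block's ratios was not tested. Immature dentate granule-like nuclei of the Control had 40.9 CPM of 9630014M24Rik and the dentate granule-like class of the other library 207 CPM. What this says about the mix of nuclei was not tested.

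Female and male nuclei, which came from 1 and 2 mice per library, gave log2 ratios of 6.81 and 7.35 for 9630014M24Rik, 6.12 and 5.48 for Fgf1, and 6.49 and 6.81 for Gm5820 in dentate granule-like nuclei. All 3 genes were thus higher in the nuclei of either sex, which are parts of the class on which the genes were chosen. For Ndfip1 the female value was 0.10.

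The level of the 3 genes over the excitatory classes depended on whether the dentate granule-like class, on which the genes were chosen, was counted. In the Control, 9630014M24Rik ran from 1.53 CPM in dentate granule-like nuclei to 46.4 CPM in CA1-like nuclei, a 30.3-fold range over 5 excitatory classes. In the library labelled knockout the range was 207 to 416 CPM, or 2.01-fold. For Fgf1 the ranges were 13.7-fold (1.05 to 14.4 CPM) and 2.38-fold (42.6 to 101 CPM), and for Gm5820 23.9-fold and 2.83-fold. The Control dentate levels of Fgf1 and Gm5820 were near free RNA, at 1.20 and 1.23 times the microglia-like ones per nucleus. The size of these 2 Control ranges is therefore uncertain. Without the dentate granule-like class the Control ranges were the narrower ones, at 1.28-fold against 1.77-fold for 9630014M24Rik, 1.97-fold against 2.38-fold for Fgf1 and 2.15-fold against 2.83-fold for Gm5820.

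In immature dentate granule-like nuclei 9630014M24Rik stood at 40.9 CPM (521 UMIs) in the Control and 416 CPM (4474 UMIs) in the library labelled knockout, and its log2 ratio was 3.34 (3.21 to 3.48). This was its highest level in any of the 14 classes. Fgf1 had 10.6 and 101 CPM there, a log2 ratio of 3.25 (3.00 to 3.52), and Gm5820 254 and 2044 UMIs, a log2 ratio of 3.25 (3.06 to 3.44). Of the 6 genes 3 were past the size rule, against 0.293% of 9562 genes higher in this class. In the Control this class thus had higher levels of all 3 RNAs than the dentate granule-like class. Ndfip1 was higher there too, at 281 against 232 CPM in the Control. Between the libraries, Ndfip1 had a log2 ratio of 0.02 (-0.05 to 0.09) in immature dentate granule-like nuclei.

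CA3 pyramidal neurons receive the mossy fibers of the granule cells. In CA3-like nuclei the 3 genes between Spry4 and Arhgap26 were higher in the library labelled knockout. 9630014M24Rik had 36.4 and 236 CPM (log2 ratio 2.70, 2.60 to 2.80), Fgf1 8.69 and 53.0 CPM (2.61, 2.41 to 2.82) and Gm5820 10.4 and 67.2 CPM (2.68, 2.501 to 2.87). In female nuclei Fgf1 was at 2.37 (2.05 to 2.72) and Gm5820 at 3.11 (2.77 to 3.48), and in male nuclei at 2.95 and 2.80. In this class the 8 subicular or cortical markers summed to 2317 and 1990 CPM, above the 7 CA3 markers at 1961 and 1836 CPM. The 6 choroid plexus markers summed to 84.0 and 197 CPM and the 6 immature granule cell markers to 63.8 and 91.9 CPM. The part of these differences in the ratios was not tested. Spry4 had 1.14 and 8.97 CPM, a log2 ratio of 2.96 (2.43 to 3.58), the nearest it came to the 10 CPM minimum in an excitatory class. The block had 3 genes past the size rule, against 1.35% of 8049 genes higher.

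In CA1-like nuclei the ratios were smaller. 9630014M24Rik had 46.4 and 235 CPM, a log2 ratio of 2.34 (2.25 to 2.42), Fgf1 14.4 and 54.3 CPM, a log2 ratio of 1.92 (1.76 to 2.07), and Gm5820 22.5 and 84.5 CPM, a log2 ratio of 1.91 (1.78 to 2.03). Again 3 of the 6 genes were past the size rule, against 3.14% of 8160 genes higher. Gnpda1 came closest to it from below, with 8.79 and 15.3 CPM and a log2 ratio of 0.80 (0.56 to 1.03). That value was 1.34 for female and 0.35 for male nuclei, and in 1 random thinning of every nucleus to 2000 UMIs it was -0.16 (40 and 28 UMIs), while the exact mean over all such thinnings, added after that value was seen, was 0.78 (30.8 and 41.7 UMIs). In the CA1-like class the 6 immature granule cell markers summed to 38.6 and 105 CPM and the 8 subicular or cortical ones to 476 and 331 CPM. The 6 choroid plexus markers summed to 46.7 and 71.7 CPM. At a clustering resolution of 2 the nuclei of this class fell into a cluster of 324 and 1314 and one of 1314 and 32. The part of these differences in the CA1-like ratios was not tested. In subicular or cortical excitatory-like nuclei the log2 ratios were 2.77 for 9630014M24Rik, 2.53 for Fgf1 and 2.78 for Gm5820, against 1.46% of genes higher.

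**Figure D2:**
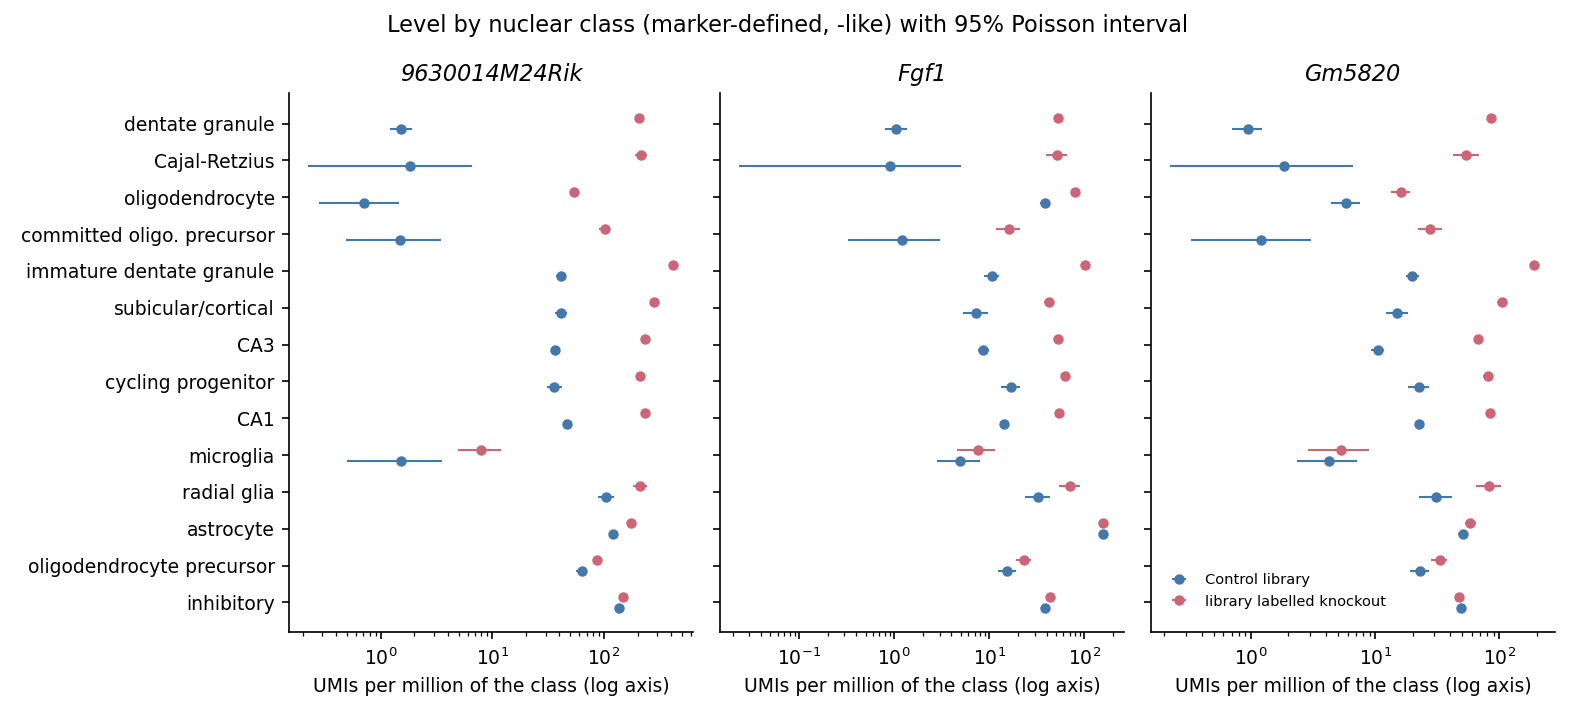
Levels of 9630014M24Rik, Fgf1 and Gm5820 (horizontal log axis, CPM) in 14 nuclear classes (vertical axis) of the Control library (blue) and the library labelled knockout (red), with 95% Poisson intervals. The red points of 9630014M24Rik in the 5 excitatory classes lie between 207 and 416, the blue points at 1.53 in the dentate granule-like class and between 36.4 and 46.4 in the other 4, and both points of the inhibitory class nearly coincide.

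Inhibitory-like nuclei carried the block in both libraries. 9630014M24Rik stood at 137 CPM in the Control, the highest Control level among the 14 classes, and at 149 CPM in the library labelled knockout, so that its log2 ratio was 0.12 (0.04 to 0.19). Fgf1 had 38.6 and 43.2 CPM, a log2 ratio of 0.16 (0.02 to 0.30), and Gm5820 49.2 and 47.2 CPM, a log2 ratio of -0.06 (-0.19 to 0.07). None of the 6 genes was 2-fold higher in this class, where 0.091% of 8790 genes were higher. A 9630014M24Rik UMI was seen in 73.7% of these nuclei in either library. The difference between this class and the excitatory classes was not tested, since each library stands alone.

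In some glial classes the ratio of Fgf1 was smaller than those of its neighbours, though these differences were not tested. Astrocyte-like nuclei had the highest Fgf1 level of the 14 classes in both libraries, 156 and 157 CPM (1484 and 1189 UMIs), a log2 ratio of 0.01 (-0.10 to 0.12). In the same nuclei 9630014M24Rik had 121 and 174 CPM, a log2 ratio of 0.52 (0.41 to 0.64), and Gm5820 51.2 and 58.5 CPM, a log2 ratio of 0.19 (0.00 to 0.38). None of these was 2-fold higher, against 0.138% of genes higher in the class. In oligodendrocyte precursor-like nuclei the log2 ratios were 0.47 for 9630014M24Rik, 0.59 for Fgf1 and 0.53 for Gm5820, against 0.17% of genes higher. Spry4 had its highest level there, 42.2 and 34.8 CPM, a log2 ratio of -0.28 (-0.57 to 0.00).

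In oligodendrocyte-like nuclei Fgf1 was present in the Control, at 38.2 CPM (381 UMIs), although 9630014M24Rik was almost absent, at 0.702 CPM (7 UMIs). In the library labelled knockout Fgf1 stood at 80.6 CPM and 9630014M24Rik at 54.3 CPM, which gave log2 ratios of 1.08 (0.89 to 1.26) and 6.17 (5.22 to 7.60). Gm5820 had a log2 ratio of 1.46 (1.01 to 1.94). Of the 6 genes 3 passed the size rule, against 2.2% of genes higher in this class. Fgf1 was at 1.44 in female nuclei and 0.75 (0.48 to 1.02) in male nuclei, so its 2-fold call did not hold in the nuclei of the 2 males. At a clustering resolution of 2 most of the class lay in a cluster of 378 Control and 637 other nuclei and one of 671 and 183. The smallest Fgf1 value past the rule was this one, and the smallest of 9630014M24Rik was that of radial glia-like nuclei, 1.01 (0.70 to 1.33), where 0.43% of genes were higher. In male radial glia-like nuclei it was 0.81.

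Committed oligodendrocyte precursor-like nuclei had 5 and 313 UMIs of 9630014M24Rik, a log2 ratio of 5.96 (4.85 to 7.72), and 4 and 85 of Gm5820, a log2 ratio of 4.37 (3.12 to 6.44). Fgf1 had 4 and 49 UMIs, just under the minimum of 50, and 1.34% of genes were higher in this class. Cajal-Retzius-like nuclei, early-born neurons of the marginal zone, had 2 and 289 UMIs of 9630014M24Rik, a log2 ratio of 6.56 (5.01 to 9.93), and 1 and 69 of Fgf1, a log2 ratio of 5.24 (3.29 to 11.14), against 2.41% of genes higher. The Control level of 9630014M24Rik, Fgf1 and Gm5820 in that class thus rested on 1 or 2 UMIs each.

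The cycling progenitor-like class had log2 ratios of 2.55 for 9630014M24Rik, 1.91 for Fgf1 and 1.85 for Gm5820, against 0.736% of genes higher. Most of its UMIs came from cluster 29, whose nuclei had medians of 45305 and 46603 UMIs and no cycling gene among their leading genes. In cluster 24, led by Top2a, 9630014M24Rik had 10 and 66 UMIs, or 17.7 and 155 CPM, and Fgf1 0 and 15 UMIs. In cluster 30, also led by Top2a, 9630014M24Rik had 18 and 25 UMIs, or 46.5 and 80.6 CPM, and Gm5820 8 and 10 UMIs, both under 2-fold, while Fgf1 had 3 and 7 UMIs, or 7.74 and 22.6 CPM. Microglia-like nuclei had 5 and 21 UMIs of 9630014M24Rik and 16 and 20 of Fgf1, under the minimum, in a class where 0.177% of genes were higher.

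**Figure D3:**
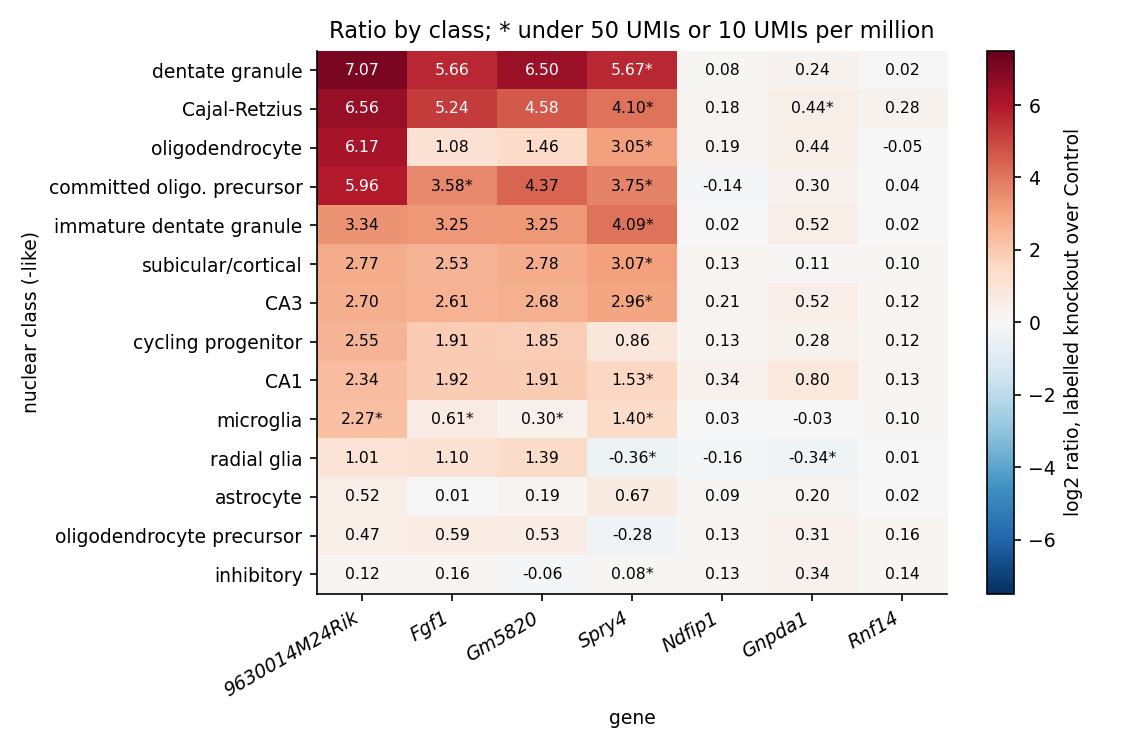
Log2 ratio of the library labelled knockout over the Control (colour and number) for Spry4 and the 6 genes of the block (columns) in 14 nuclear classes (rows), with an asterisk where the gene had under 50 UMIs or 10 CPM in the higher library. The 3 columns on the Fgf1 side of Spry4 are red in most rows and pale in the inhibitory row, and the Ndfip1 column runs only from -0.16 to 0.34.

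Over the 14 classes, 9630014M24Rik was past the 2-fold rule upwards in 10, Fgf1 in 9 and Gm5820 in 10. Per class, 0.091% to 3.14% of all genes tested were higher. How many genes were higher in that many classes was not counted. Ndfip1, Gnpda1 and Rnf14 were 2-fold higher in none, which is near those shares, so nothing is read from it. Ndfip1 was abundant in every class, from 187 CPM in astrocyte-like to 512 CPM in committed oligodendrocyte precursor-like nuclei of the Control. Its log2 ratios ran from -0.16 in radial glia-like to 0.34 (0.30 to 0.39) in CA1-like nuclei. In CA1-like nuclei the Ndfip1 ratio was 0.62 in female and 0.21 in male nuclei. Gnpda1 had its highest level in microglia-like nuclei, 44.9 and 44.0 CPM, and Rnf14 was the most even of the 6, between 48.6 and 66.6 CPM over the Control classes.

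In the order of Control levels, 9630014M24Rik was highest in inhibitory-like, then astrocyte-like and radial glia-like nuclei, and the intervals of the latter pair overlapped. Its lowest classes, dentate granule-like, microglia-like, committed oligodendrocyte precursor-like, Cajal-Retzius-like and oligodendrocyte-like nuclei, had at most 1.83 CPM, with overlapping intervals between neighbours. For Fgf1 the order in the Control began with astrocyte-like nuclei, followed by inhibitory-like, oligodendrocyte-like and radial glia-like nuclei, and the last 3 overlapped.

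The genes around the block were compared in the same way, with the dentate granule-like ratios again those on which the block was chosen. Among Spry4 and the 10 counted genes on each side, only 9630014M24Rik, Fgf1 and Gm5820 were past the size rule upwards in dentate granule-like, CA3-like or CA1-like nuclei, against 2.24%, 1.35% and 3.14% of all genes tested. Arhgap26, which lies 21.9 kb beyond Gm5820, was the nearest gene on that side that was not. It had 162 and 245 CPM in dentate granule-like nuclei, a log2 ratio of 0.60 (0.56 to 0.64), and its log2 ratio was 0.64 in CA3-like nuclei and 0.54 in CA1-like ones. In inhibitory-like nuclei its log2 ratio was -0.08 (-0.14 to -0.03). Arhgap26 did pass the rule in immature dentate granule-like nuclei, with 72.3 and 264 CPM and a log2 ratio of 1.87 (1.76 to 1.98), and in oligodendrocyte-like (1.59), committed oligodendrocyte precursor-like (1.77) and Cajal-Retzius-like nuclei (1.81). On the other side of Spry4 the nearest gene was Ndfip1, at a distance of 121 kb.

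Farther out, the glucocorticoid receptor gene Nr3c1 had 80.5 and 47.3 CPM in dentate granule-like nuclei, so that its log2 ratio was -0.77 (-0.85 to -0.69), and in CA3-like nuclei -0.52. It is named after its values were seen. Neither Arhgap26 nor Nr3c1 was 2-fold different in dentate granule-like nuclei.

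**Figure D4:**
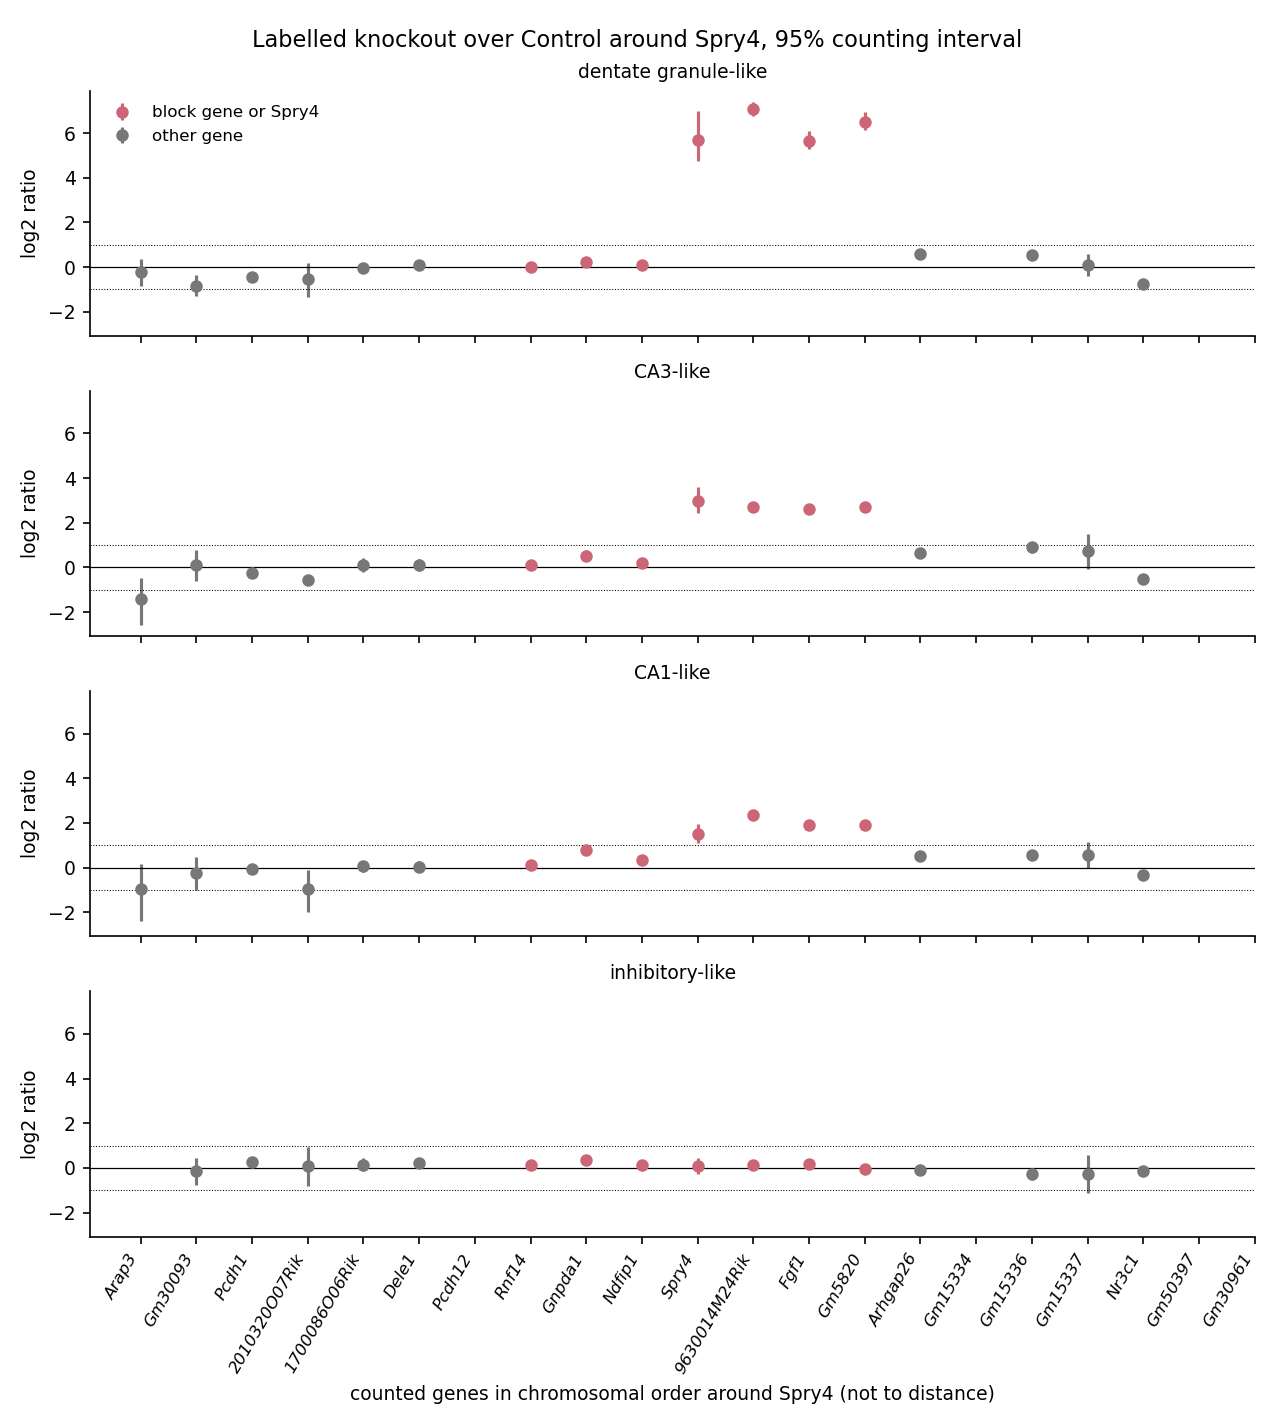
Log2 ratio of the library labelled knockout over the Control, with 95% counting intervals, for Spry4 and the 10 counted genes on each side in chromosomal order (horizontal axis, not to distance), in 4 classes. Red points are Spry4 and the 6 genes of the block, grey points the other genes, genes with under 20 UMIs in both libraries together are left out, and dotted lines mark 2-fold. In dentate granule-like nuclei the 4 genes from Spry4 to Gm5820 lie between 5.66 and 7.07, and the other points lie within the dotted lines.

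Whether the RNAs occurred in the same nuclei was asked with every nucleus thinned to 5000 UMIs, which left 3569 dentate granule-like nuclei of the library labelled knockout. An Fgf1 UMI was seen in 25.4% (23.6% to 27.3%) of nuclei with a 9630014M24Rik UMI and in 22.1% (19.96% to 24.4%) of those without. Gm5820 was seen in 35.2% and 32.2%, and Spry4 in 3.45% and 4.33%. Ndfip1, for comparison, was seen in 68.3% and 68.1%. The separate intervals overlapped for Fgf1, and the differences within pairs were not tested. Gm5820 was seen in 37.8% (34.6% to 41.2%) of nuclei with an Fgf1 UMI and 32.8% (31.1% to 34.6%) of those without. Without thinning the Fgf1 shares were 44.3% and 34.5%, a wider gap in nuclei of unequal depth.

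At that depth 19.4% of the nuclei had a UMI of none of the 4 genes from Spry4 to Gm5820, 44.7% had 1 of them, 28.8% had 2, 6.75% had 3 and 0.308% had all 4. In the Control 98.5% had none. CA3-like nuclei of the library labelled knockout gave Fgf1 shares of 26.3% with and 22.4% without a 9630014M24Rik UMI, and CA1-like nuclei 23.7% and 20.1%, again with overlapping intervals. In immature dentate granule-like nuclei an Fgf1 UMI was seen in 38.8% (34.3% to 43.3%) of nuclei with and 24.2% (16.8% to 32.8%) of those without 9630014M24Rik. Whether this gap differed from that of the other classes was not tested. Thinning left 587 nuclei of that class and removed 2152 shallower ones.

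**Figure D5:**
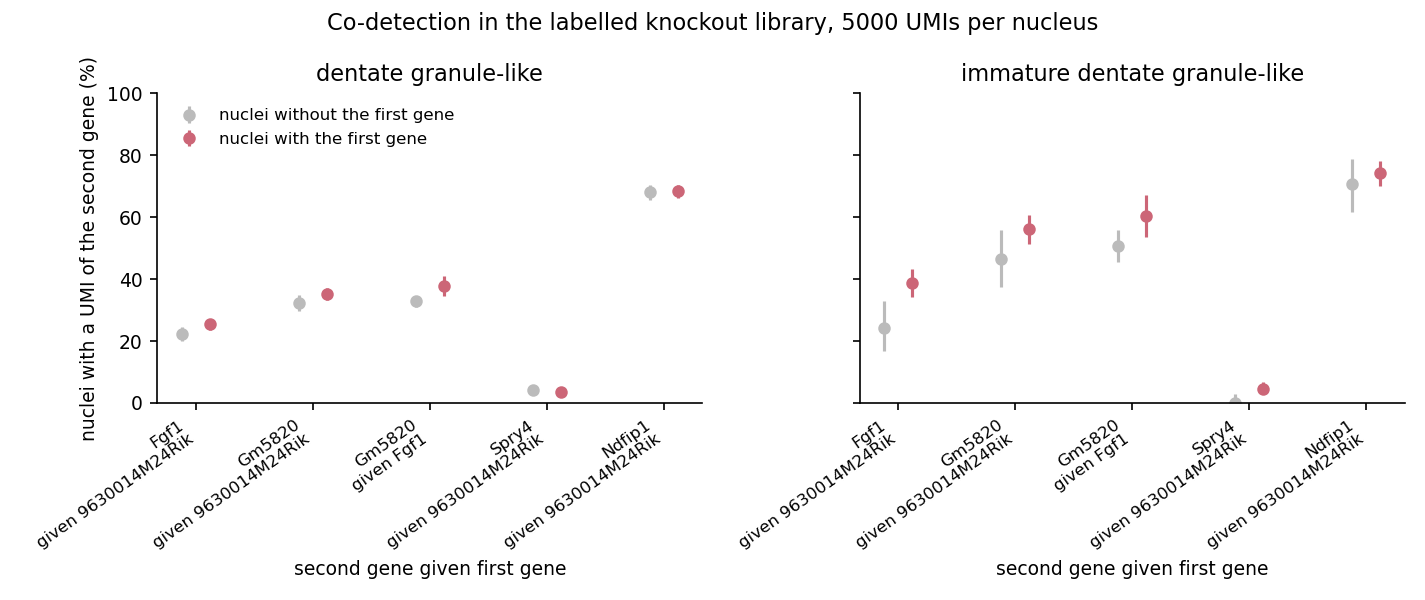
Share of nuclei of the library labelled knockout with a UMI of the latter gene of each pair (vertical axis, percent), among nuclei with (red) and without (grey) a UMI of the gene it is conditioned on, at 5000 UMIs per nucleus and with exact binomial 95% intervals. In dentate granule-like nuclei the Fgf1 points lie at 25.4% and 22.1%, and in immature dentate granule-like nuclei at 38.8% and 24.2%.

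Genes related in function to Fgf1, Spry4, Ndfip1, Gnpda1 or Rnf14 were taken from 6 lists, which were chosen with earlier results of these data known. Counts and medians over these lists are therefore a description. Of 22 FGF ligand genes, 7 passed the minimum in dentate granule-like nuclei and 2 were higher, Fgf1 and Fgf10, against 2.24% of all genes tested. The list median was 0.03 against 0.02 over all genes tested. Fgf1 is a block gene picked with its ratio in this class known, and it passed the minimum only through the library labelled knockout. Nothing is read from that count. Fgf10, a ligand that acts through FGFR2b, had 5.80 and 12.9 CPM, a log2 ratio of 1.16 (0.95 to 1.36). Fgf10 too passed the minimum of 10 CPM only through the library labelled knockout. In CA1-like nuclei Fgf10 went the other way, 20.4 and 8.74 CPM, a log2 ratio of -1.22 (-1.46 to -0.99). Of 14 receptor and cofactor genes 5 passed the minimum and none was 2-fold different in dentate granule-like nuclei. Fgfr1, a receptor of FGF1, had a log2 ratio of 1.07 (0.97 to 1.17) in CA1-like nuclei, and it is named after its values were seen.

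Of the ERK-induced and CIC-repressed feedback genes, 14 of 15 listed were found and 10 passed the minimum in dentate granule-like nuclei. Of these 6 were higher and 1 lower (2.24% and 1.04% of all genes tested), with a median of 1.46 against 0.02 over all. Nothing is read from that count or median, since the list was chosen with earlier results known. Etv4, Etv5 and Spred3 (8.82 and 55.6 CPM) passed the minimum only through the library labelled knockout, and Spry2 only through the Control. The levels of Etv1 and Spred1 are not given here. The transcription factor genes Etv4 and Etv5 had log2 ratios of 6.66 (1.10 and 113 CPM) and 5.88 (1.53 and 90.7 CPM), within the range of 9630014M24Rik, Gm5820 and Fgf1. Shc3, which encodes an adaptor of receptor tyrosine kinases, had 3.55, and Spred3, an inhibitor of RAS signalling, 2.66. Etv1 had 1.85 and Spred1 1.07, while Spry2, a relative of Spry4, had a log2 ratio of -1.11 (12.6 and 5.84 CPM). None of 13 NEDD4-family ligase and adaptor genes, 9 hexosamine pathway genes and 16 RING-between-RING genes that passed the minimum was 2-fold different, and their medians were 0.05, 0.07 and -0.03.

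The genes whose levels most resembled those of the block were sought over 28 sums, the 14 classes in each of the 2 libraries, among 13015 genes. These sums share 2 libraries and their depth, so the correlations of log levels are a description. Nearest to 9630014M24Rik were Gm5820 (Pearson r 0.96), Shc3 (0.94), Spred3 (0.88), Ptpn9 (0.87) and Rita1 (0.81). Nearest to Fgf1 were Gm5820 (0.86), 9630014M24Rik (0.79), Rita1 (0.71), Etv4 (0.69) and Shc3 (0.69). Ndfip1 had an r of -0.37 with 9630014M24Rik and Rnf14 one of 0.17.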

How the data were processed

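Nuclear RNA of 2 libraries, 1 per group, was counted by the authors with Cell Ranger 8.0.1 on mm39, per the submitters' processing notes. The deposited values are raw counts of UMIs, with no normalization. Nuclei with under 500 genes or over 5% mitochondrial UMIs were left out, as were doublets called with Scrublet in scanpy 1.11.5 (13.1% of Control nuclei and 10.7% of the others). Both libraries were clustered together (3000 variable genes without the block or Spry4, 30 principal components, 15 neighbours, Leiden resolution 1 with leidenalg 0.10.2, Python 3.11.15). Clusters were named from 23 marker sets, with at least 3 markers raised. Unnamed clusters held 13.7% and 15.5% of nuclei.

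UMIs were summed per class and library. A log2 ratio is the library labelled knockout over the Control in CPM, with 0.5 UMI added to each sum. Intervals are 95%: exact Poisson for levels, exact conditional binomial for ratios and Clopper-Pearson for shares. They cover counting error only, not mice or library preparation. Thinning drew UMIs without replacement, 1 draw per nucleus. Likeness was Pearson's r of log2(CPM + 1). A nucleus was taken as female on 2 or more Xist UMIs without any Y-linked UMI, and as male on 1 or more Y-linked UMIs without Xist. TMM factors came from edgeR 4.0.16. The ratio, size rule and thinning were checked on simulated data.

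The members and the 6 gene lists were chosen with earlier results of these data known. Named genes were the 6 members and Spry4, neighbours that the size rule called in the dentate granule-like, CA3-like or CA1-like class and the nearest on each side that was not, listed genes that it called in the dentate class, and the 5 genes most like 9630014M24Rik and Fgf1. Other names are given as such.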

Additional observations from a re-analysis of the deposited data

Results flagged for a closer look

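Ndfip1 had opposite directions in 2 classes, with a log2 ratio of 0.34 (0.30 to 0.39) in CA1-like nuclei and -0.14 (-0.24 to -0.04) in committed oligodendrocyte precursor-like nuclei. The difference between the classes was not tested.

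Clusters that no marker set named, and that no comparison above used, also held the 3 genes on the Fgf1 side of Spry4 at higher levels in the library labelled knockout. In cluster 9 the log2 ratios were 3.05 for 9630014M24Rik, 2.87 for Fgf1 and 3.11 for Gm5820. In cluster 12 they were 2.36, 2.29 and 2.31 in the same order, and in cluster 14 they were 4.28, 3.52 and 4.29. Cluster 18 gave 2.81 for 9630014M24Rik, 2.03 for Fgf1 and 3.31 for Gm5820. Cluster 19 gave 1.39, 1.54 and 1.38, and cluster 20 gave 3.12, 2.35 and 2.16. None of these was tested.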

How the results depend on the processing

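With 1 library per group, no library could be left out and no ratio has a replicate error. No paired analysis was possible because each group holds 1 library. Of the other settings applied to the dentate granule-like values, 63 results stayed within the counting interval of the reported value and 12 moved beyond it. None changed the count of block genes past the size rule. For 9630014M24Rik the log2 ratio was 7.80 in 1 thinning to 2000 UMIs and 6.31 with at least 1000 genes per nucleus and new clusters. For Fgf1 it was 6.12 in female nuclei alone and 8.18 with free RNA subtracted, and for Gm5820 5.88 with at least 1000 genes and 8.86 with free RNA subtracted. Ndfip1 gave 0.033 thinned and 0.15 with free RNA subtracted, Gnpda1 1.05 with free RNA subtracted and Rnf14 -0.17 thinned. That Gnpda1 ratio is past 2-fold, but its subtracted level was under the minimum of 10 CPM. Microglia-like nuclei, from which free RNA was taken, express Ndfip1 and Gnpda1 themselves (361 and 44.9 CPM in the Control), so that subtraction removes more than free RNA. The Fgf1 shares with and without 9630014M24Rik were 44.3% and 34.5% unthinned.

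In immature dentate granule-like, CA3-like, CA1-like and inhibitory-like nuclei, 3 values whose interval did not reach 0 turned: Gnpda1 in CA1-like nuclei was -0.16 thinned, 9630014M24Rik in inhibitory-like nuclei -0.044 in female nuclei, and Fgf1 in inhibitory-like nuclei -0.033 thinned. In the other classes only the sexes were compared, and Ndfip1 in oligodendrocyte-like nuclei, at 0.19, was -0.05 in female nuclei. Thinning was 1 random draw. Its exact mean over all draws was added after the thinned values had been seen, and left each ratio within its counting interval, as did leaving out barcodes found in both libraries, also added later. Median-of-ratios scaling lowered all ratios by 0.11 in CA1-like nuclei.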
